A study of Mus musculus with 4 samples.

Results

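The keratin gene family was followed on 4 arrays of sorted mouse mammary basal cells. Members were the genes whose platform symbol is Krt with a number and at most 1 further letter, read from probe sets assigned to exactly 1 gene. This gave 48 genes on 61 probe sets, of 18193 genes in all. They fell into 4 basal keratins (Krt5, Krt14, Krt15, Krt17), 4 luminal keratins (Krt7, Krt8, Krt18, Krt19), 7 suprabasal or stress keratins (Krt1, Krt4, Krt6a, Krt6b, Krt10, Krt13, Krt16) and 33 others, many of them hair keratins. The first 3 groups are lists of gene names, drawn up with earlier results of these data known.

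All 4 arrays came from mammary glands of mice of the mixed background B66SJL/HEV/J that carried the MMTV-Wnt1 transgene, in which the long terminal repeat of a mouse mammary tumour virus drives the Wnt1 ligand in mammary epithelium. No array came from mice without the transgene, so each difference is one between diets in transgenic glands. Casein (CAS) was the control diet, given to the mice behind 2 arrays, and for the other 2 the diet was soy protein isolate (SPI). The sorted population, enriched for mammary stem cells, is labelled as holding myoepithelial cells and their progenitors beside stem cells. Age is not given in the sources used here, and the labels do not say whether animals were pooled or whether the replicates of a diet are separate animals. The p-values therefore reflect no more than the spread of these 4 samples, and that spread may be technical.

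Keratins are the intermediate filament proteins of epithelia. Each filament is built from pairs of an acidic type I and a basic type II keratin, so cells express them in partner sets, and the set changes with cell type. In the mammary gland Krt5 and Krt14 mark basal and myoepithelial cells, while Krt8, Krt18, Krt19 and Krt7 mark the luminal cells that line the ducts. Krt6a, Krt6b, Krt16 and Krt17 are induced in wounded or hyperproliferative epithelium, and Krt6 proteins are also known from mammary progenitor cells and Wnt1-driven tumours. Krt1 with Krt10, and Krt4 with Krt13, belong to the upper layers of epidermis and of moist mucosa.

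The values are log2 expression values centred per probe set, so that the median of the 4 arrays is 0 and the middle pair of arrays is equal and opposite. They show differences between arrays and hold no levels. A coarse level class could still be read from the step size of the digits. It placed 20 of the 48 keratins at 8 to 16, 17 at 4 to 8 and 11 below 4 on the log2 scale. Of all 18193 genes, 7265, 6964 and 3964 were in these classes, so the family was spread much as all genes were. All 8 basal and luminal keratins were in the highest class. The class does not establish expression, since 12 of 44 olfactory receptor probe sets also reached 4 or above. Of these 12, 2 were in the highest class. Of 15 basal and myoepithelial markers that are not keratins, Acta2 and Trp63 among them, 14 reached the highest class, as did 10 of 16 luminal ones.

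Regulatory sequence was available from RefSeq (GRCm38.p6) for 32 of the 48 keratin genes, 4 of which passed the test described further on. They are shown because Krt7, Krt79 and Krt18 were lower in SPI while Krt73 was higher. Each run is the 150 bases before the start, 5′ to 3′ on the gene's strand, and capitals mark matches on either strand to the TATA box (TATAAA), the GC box (GGGCGG), the CCAAT box (CCAAT), AP-1 (TGANTCA) or the ETS core (CNGGAAG). None of these motifs contains another.
Krt7 (chr15:101412253-101412402, plus strand): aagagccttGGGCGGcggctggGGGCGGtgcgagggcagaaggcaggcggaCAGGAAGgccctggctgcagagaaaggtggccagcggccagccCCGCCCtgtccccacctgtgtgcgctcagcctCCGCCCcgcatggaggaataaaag
Krt79 (chr15:101940325-101940474, minus strand): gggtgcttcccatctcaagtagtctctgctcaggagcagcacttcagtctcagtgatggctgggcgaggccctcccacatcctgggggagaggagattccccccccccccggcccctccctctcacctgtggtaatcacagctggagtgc
Krt18 (chr15:102028066-102028215, plus strand): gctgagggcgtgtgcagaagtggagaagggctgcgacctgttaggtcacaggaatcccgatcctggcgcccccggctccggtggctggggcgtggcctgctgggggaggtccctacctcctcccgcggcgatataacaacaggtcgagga
Krt73 (chr15:101802361-101802510, minus strand): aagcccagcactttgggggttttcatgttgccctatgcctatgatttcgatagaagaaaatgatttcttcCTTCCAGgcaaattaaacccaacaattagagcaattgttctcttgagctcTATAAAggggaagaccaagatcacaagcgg
Krt7 held 4 GC boxes and 1 ETS core and no TATA box by these letters. Krt73 held an ETS core and a TATA box that begins 30 bases before the start. Neither Krt79 nor Krt18 held any of the 5 motifs in this window. Over the 32 keratin genes, 14 had the TATA letters in their 150 bases, against 7.57% of all promoters at the same length. GC boxes were found in 2 of the 32, against 28.6% of all promoters, CCAAT boxes in 10, against 24.5%, ETS cores in 4, against 18.7%, and AP-1 in 1, against 4.24%. These are matches of letters and were not tested as sites.

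Of the 48 keratins, 8 fell and 2 rose on the SPI diet at a limma adjusted p under 0.05 (Benjamini-Hochberg over all 18193 genes). The 10 genes are 20.8% of the family. Across all genes 3.70% passed, 2.90% lower and 0.803% higher. Those that fell were Krt6a, Krt7, Krt6b, Krt79, Krt80, Krt19, Krt18 and Krt4, from 2.76-fold to 1.38-fold lower. Krt73 and Krt15 rose, 1.86-fold and 1.66-fold. The median log2 difference of the 48 was 0.03 and that of all genes 0.02, so the middle of the family lay where that of all genes did. SPI arrays both lay below both CAS arrays in 12 keratins and above them in 15. As shares these are 25.0% and 31.2%, near the 22.2% and 29.4% of all genes. The other 21 keratins overlapped, where 51.6% of all genes did not overlap in one direction or the other. With arrays centred on the hybridization controls, bacterial and phage transcripts added before hybridization, all genes shifted upward by the same amount to a median of 0.18. Then 7 keratins were lower and 5 higher: Krt4 was lost, and Krt42, Krt83 and Krt84 passed as higher. Over all genes that scaling gave 1558 higher and 502 lower where the unscaled values gave 146 and 528.

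Leaving out either CAS array (replicate 1 or replicate 2), or either SPI array (replicate 1 or replicate 2), leaves a lone array for a diet, and 0 of 18193 genes, keratins included, then passed in limma. A gene's own spread then comes from the 2 arrays of the other diet, and limma moderates it by the spread of all genes. The lone array is assumed to vary like those 2 arrays. Between 13 and 15 keratins, and between 2457 and 3038 of all genes, had an unadjusted p under 0.05 in those fits. With all 4 arrays these were 16 keratins and 3780 genes, 20.8% of all. All 10 keratins kept their direction in each fit, which arrays that do not overlap had already fixed.

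**Figure D1:**
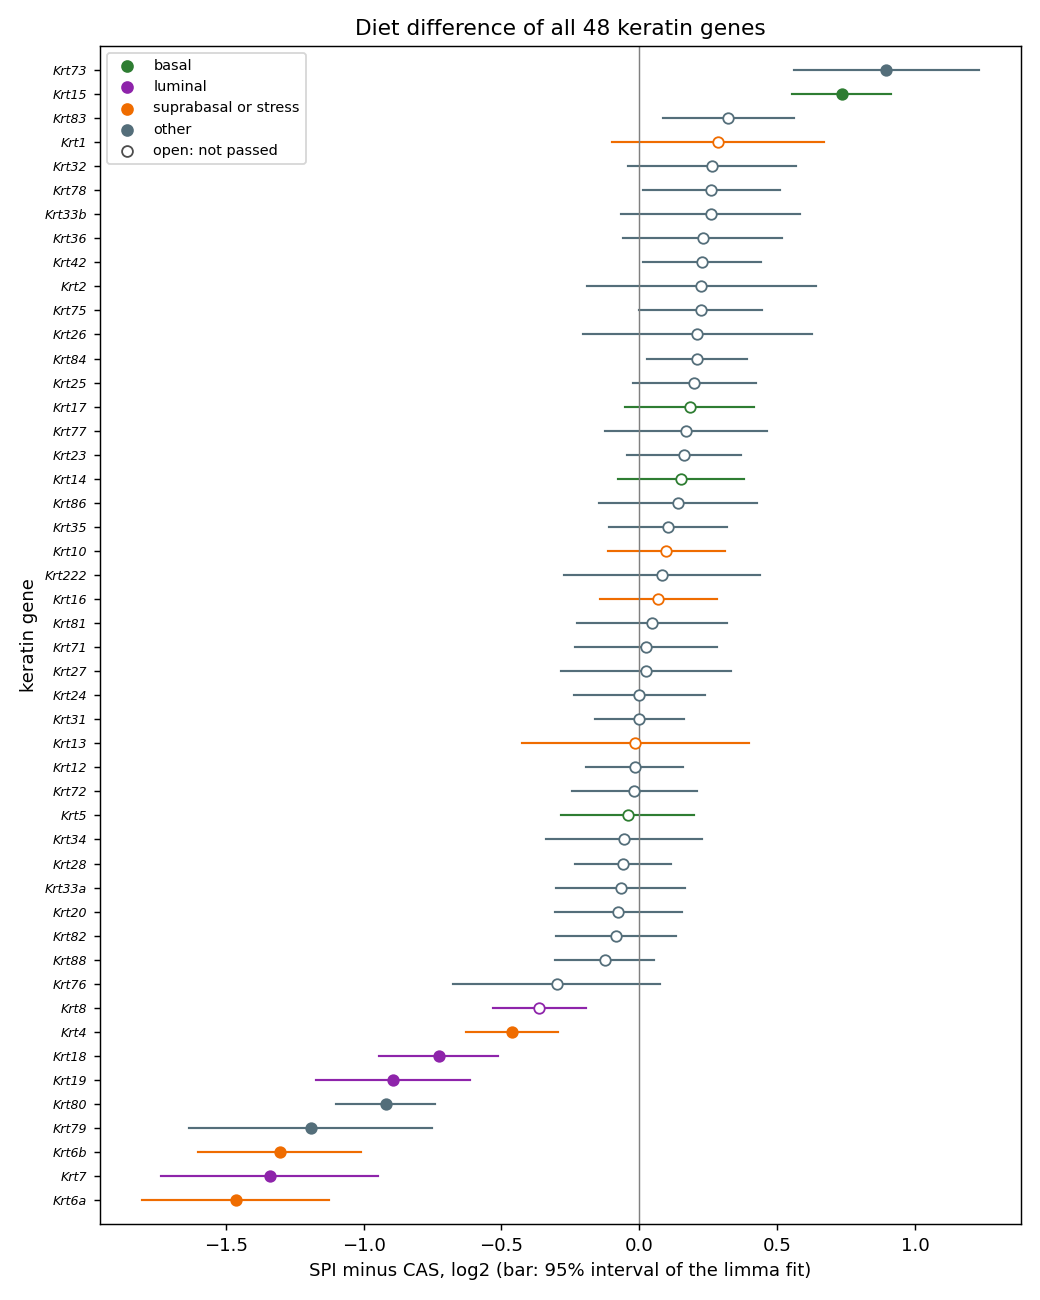
SPI minus CAS difference on the log2 scale (x) for each of the 48 keratin genes (y), points for the estimate and bars for the 95% interval of the limma fit, coloured by group, with filled points for the 10 that passed. The 8 filled points on the left lie between -1.46 and -0.46, the 2 on the right at 0.73 and 0.90, and most others sit near 0.

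All 4 luminal keratins were lower on both SPI arrays than on both CAS arrays, and 3 passed the test. Krt7, the type II keratin of ductal and glandular epithelium, had values of 0.75 and 0.52 in CAS and of -0.52 and -0.90 in SPI. Its only probe set is of a design that can bind related transcripts. The diets stood apart by more than either gap between replicates (0.236 in CAS, 0.379 in SPI). SPI was 2.53-fold below CAS (95% interval 1.93 to 3.33, 2 arrays a diet, limma adjusted p = 0.0206). In a sorted bulk sample, fewer cells of a type and less of its RNA per cell cannot be told apart. Krt19, a type I keratin without the usual tail domain, was at 0.48 and 0.35 in CAS and at -0.35 and -0.60 in SPI. This is a 1.86-fold fall (1.53 to 2.26, adjusted p = 0.0237), again with no overlap.

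Krt18, the type I partner of Krt8 in simple epithelia, had 0.33 and 0.32 in CAS and -0.32 and -0.49 in SPI. The CAS arrays were almost equal, and the fall was 1.66-fold (1.43 to 1.92, limma adjusted p = 0.0210). Its partner Krt8 had 0.18 and 0.16 in CAS against -0.16 and -0.23 in SPI. The groups of Krt8 were as cleanly separated, but the difference was smaller, -0.36 on the log2 scale (95% interval -0.53 to -0.19), and missed the threshold at a limma adjusted p of 0.0595. The 3 probe sets of Krt8 lay close together, at -0.35, -0.36 and -0.38 on the log2 scale, all of a design that can bind related transcripts. Krt8 passed when only genes at level class 4 or above were tested (limma adjusted p = 0.0364). It also passed when all probe sets of each gene were averaged (limma adjusted p = 0.0495). Its difference was -0.36 in both, as in the main fit.

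**Figure D2:**
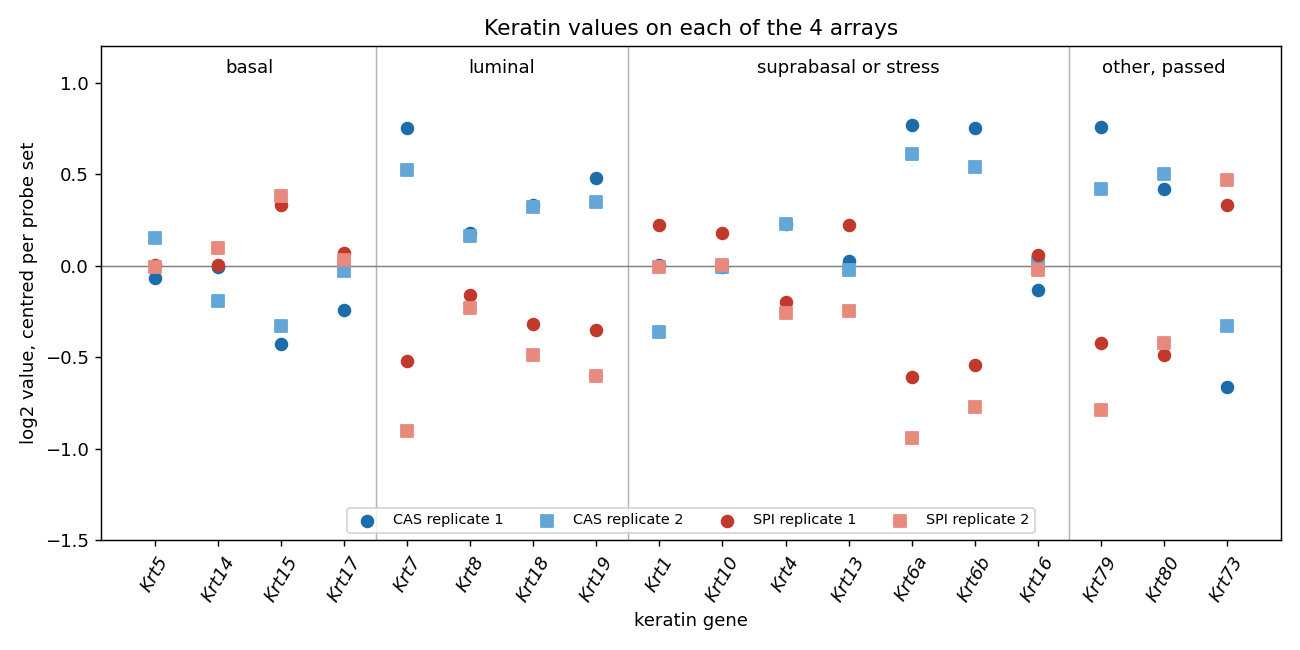
Centred log2 value (y) of 18 keratin genes (x) on each of the 4 arrays, CAS in blue and SPI in red, circles for replicate 1 and squares for replicate 2. For the luminal keratins, Krt4, Krt6a, Krt6b, Krt79 and Krt80 both red points lie below both blue ones, for Krt15 and Krt73 above, while for Krt5, Krt1, Krt13 and Krt16 the colours mix.

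Of the basal keratins, 1 of 4 rose. Krt15, a type I keratin of basal cells that is also known from the stem cells of the hair follicle bulge, had -0.43 and -0.33 in CAS and 0.33 and 0.38 in SPI. Its replicate gaps (0.0941 and 0.0460) were small beside the 1.66-fold rise (95% interval 1.47 to 1.89, limma adjusted p = 0.0134). Krt5 and Krt14, the partner pair that defines basal cells, did not pass. Krt5 had -0.070 and 0.15 in CAS and 0.0062 and -0.0062 in SPI. The CAS arrays enclosed the SPI arrays, and the difference was -0.04 with an interval of -0.28 to 0.20. It turned to 0.07 without CAS replicate 2, and centring the arrays on the hybridization controls gave 0.11.

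Krt14 was read by 3 probe sets that disagreed. The mean of the 3 gave 0.15 on the log2 scale (interval -0.08 to 0.38). Both SPI arrays lay just above both CAS arrays. On their own, 2 of the probe sets were at -0.01 and 1 at 0.48. The last rested on CAS replicate 2, at -0.61, beside -0.02 in CAS replicate 1, and had a limma adjusted p of 0.313. Krt17, a stress-induced keratin that myoepithelial cells also carry, had -0.24 and -0.030 in CAS and 0.069 and 0.030 in SPI. It did not pass (0.18, interval -0.05 to 0.42), and a further Krt17 probe set was at 0.03. Krt17 moved to 0.08 without CAS replicate 1 and to 0.29 without CAS replicate 2. A probe set shared by Krt14 and Krt17, and so outside the family as chosen, was at 0.103.

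Set against each other within each array, the luminal keratins were lower relative to the basal keratins in SPI than in CAS. The mean of the luminal keratins minus that of the basal keratins was 0.620 and 0.438 in CAS. In SPI it was -0.439 and -0.679. Since each probe set is centred, the sign on an array does not tell which group was higher there. Only the change between the diets can be read, a shift of -1.09 on the log2 scale. This quantity cannot be changed by the scaling of an array. The luminal mean changed by -0.831 and the basal mean by 0.257. Of the basal keratins only Krt15 passed, at 0.73. Krt5 was at -0.04, Krt14 at 0.15 and Krt17 at 0.18, so the basal mean rested largely on Krt15. The genes were grouped with results known, so no p is given for the shift.

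Markers of other cell types moved on the same arrays. Over all genes 2.90% passed as lower and 0.803% as higher. The 16 luminal markers that are not keratins had means of 0.307 and 0.250 in CAS and -0.256 and -0.423 in SPI. In limma 7 were lower and 0 higher, Ltf, Cldn7, Aldh1a3 and Rab25 among the 7. Of the 16, 2 lay above 0, Pgr at 0.17 and Prom1 at 0.08. Epcam, Cd24a and Foxa1, at -0.15, -0.17 and -0.06, did not pass. Basal and myoepithelial markers other than keratins had means of -0.103 and -0.0809 in CAS and 0.0699 and 0.112 in SPI, and of 15 only Oxtr, the oxytocin receptor, passed, higher in SPI. Fibroblast markers, with 9 of 12 lower, went from 0.534 and 0.593 in CAS to -0.572 and -0.578 in SPI, and endothelial and pericyte markers, with 4 of 8 lower, from 0.424 and 0.388 to -0.333 and -0.466. Leukocyte markers lay the other way, at -0.119 and -0.0711 in CAS and 0.0324 and 0.0659 in SPI. Of 7 of them 0 passed in limma and 1 had an unadjusted p under 0.05, as 20.8% of all genes did. No marker can be called absent, since the values hold no levels. The part of these cell types in the keratin differences was not tested.

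**Figure D3:**
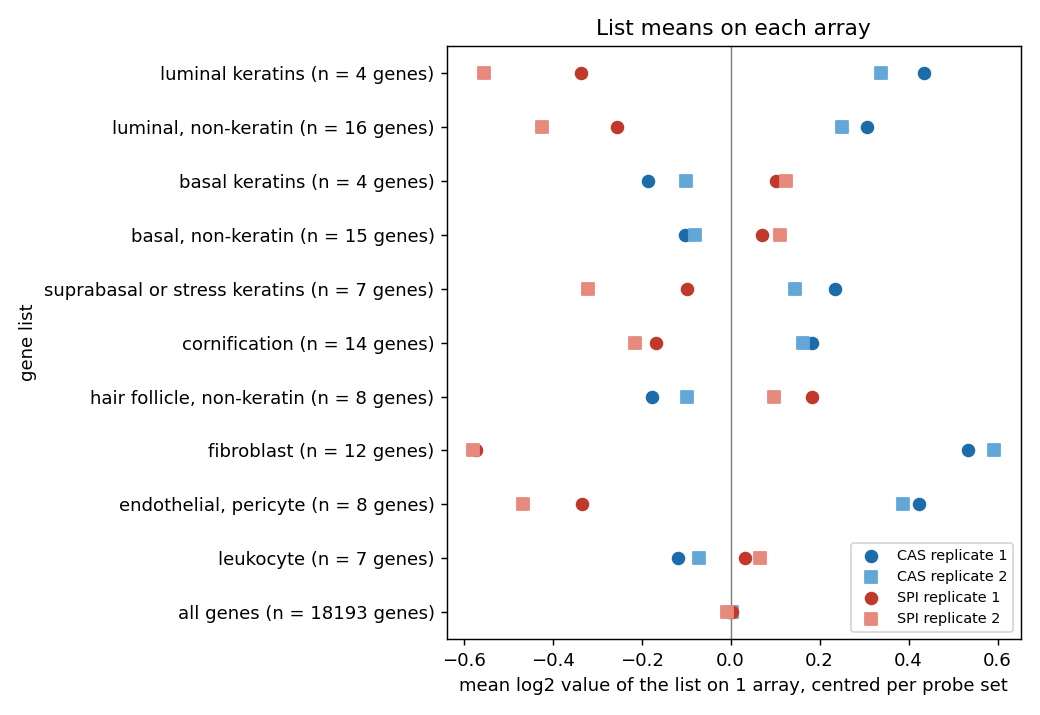
Mean centred log2 value (x) of each gene list (y) on each of the 4 arrays, CAS in blue and SPI in red, circles for replicate 1 and squares for replicate 2. Luminal keratins lie beside the other luminal markers, at 0.337 to 0.435 in CAS and -0.555 to -0.336 in SPI, and basal keratins beside the other basal markers, with SPI to the right.

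SPI replicate 2 was the lowest array in 7 of the 8, Krt80 being the exception, and CAS replicate 1 lay above CAS replicate 2 in 6 of the 8. Of the 12 keratins with both SPI arrays below both CAS arrays, SPI replicate 2 was lowest in 9, and of the 4038 such genes overall in 2367. Over all genes SPI replicate 2 lay below SPI replicate 1 in 51.9%, and CAS replicate 2 below CAS replicate 1 in 48.1%. The luminal markers other than keratins showed SPI replicate 2 below SPI replicate 1 in 13 of 16.

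Among the suprabasal or stress keratins, 3 of 7 fell. Krt6a had 0.77 and 0.61 in CAS and -0.61 and -0.94 in SPI, the largest difference of the family at 2.76-fold lower (95% interval 2.18 to 3.49, limma adjusted p = 0.0120). Its 2 further probe sets, of a lower level class, gave log2 differences of -1.31 and -1.15 and passed on their own. Krt6b, its neighbour and close relative, had 0.75 and 0.54 in CAS and -0.54 and -0.77 in SPI. It was 2.47-fold lower (2.01 to 3.03, adjusted p = 0.0115). The transcripts of Krt6a and Krt6b are alike enough that probes for one may bind the other, so they may not be independent measurements.

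The type I keratins that pair with Krt6a and Krt6b did not pass. Krt16 had -0.13 and 0.023 in CAS and 0.056 and -0.023 in SPI, with overlap and a log2 difference of 0.07 (interval -0.14 to 0.28). It lay at -0.01 without CAS replicate 1. Krt17, given above, was at 0.18. The intervals of both lie above those of Krt6a and Krt6b, which reach -1.12 and -1.01 at their nearest to 0. The difference between partners was not tested.

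Krt4, a type II keratin of mucosal epithelium, was at 0.23 on both CAS arrays and at -0.20 and -0.26 in SPI, 1.38-fold lower (1.23 to 1.55, limma adjusted p = 0.0331). Its probe sets differed: the one that can bind related transcripts was at -0.60 (adjusted p = 0.0281), and the other, at -0.32, did not pass on its own (adjusted p = 0.134). Krt13, the mucosal partner of Krt4, had 0.024 and -0.024 in CAS and 0.22 and -0.25 in SPI. The SPI arrays lay on both sides of CAS, and the difference was -0.02 (interval -0.43 to 0.40), between -0.25 and 0.22 when 1 array was left out with 0.14 once arrays were centred on the hybridization controls.

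The epidermal pair Krt1 and Krt10 did not pass either. Krt1 had 0.0063 and -0.36 in CAS and 0.22 and -0.0063 in SPI, a log2 difference of 0.29 (interval -0.10 to 0.67) that rested on CAS replicate 2 being low. Krt10 lay between -0.0066 and 0.0048 on 3 arrays and at 0.18 on SPI replicate 1, a difference of 0.10. Of 14 keratinocyte and cornification markers that are not keratins, 4 fell in limma, Dmkn, Sprr1a, Sbsn and Cnfn, while Lor, Ivl and Flg were at 0.13, 0.11 and 0.04 and did not pass. Their list mean was 0.184 and 0.162 in CAS and -0.167 and -0.215 in SPI, and its part in the keratin differences was not tested.

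Of the 33 other keratins 2 fell and 1 rose. Krt79, a type II keratin of the upper hair follicle and the ducts of sebaceous glands, had 0.76 and 0.42 in CAS and -0.42 and -0.79 in SPI. Its replicates were well apart (gaps of 0.348 and 0.372), but the diets did not overlap. It was 2.28-fold lower (95% interval 1.68 to 3.10, limma adjusted p = 0.0357). Krt80, a type II keratin of several epithelia, had 0.42 and 0.50 in CAS and -0.49 and -0.42 in SPI. With gaps of only 0.0789 and 0.0642 it had the smallest p of the family (1.89-fold lower, 1.67 to 2.14, adjusted p = 0.00847).

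Krt73, a type II keratin of the inner root sheath of the hair follicle, had -0.66 and -0.33 in CAS and 0.33 and 0.47 in SPI. It was 1.86-fold higher (95% interval 1.48 to 2.35, limma adjusted p = 0.0362). Both SPI arrays lay above both CAS arrays, though CAS replicate 1 was well below CAS replicate 2. Of its neighbours on chromosome 15, Krt71 was at 0.02 and Krt72 at -0.02, while Krt2, on its other side, was at 0.23 with overlap. Among type I keratins of the inner root sheath, Krt25 was at 0.20, Krt26 at 0.21, Krt27 at 0.02 and Krt28 at -0.06. None of these neighbours and type I keratins passed.

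The remaining 30 keratins did not pass. They lay between -0.30 and 0.32, with a median of 0.09, 20 of them above 0 and 9 below. Those farthest above 0 were the hair keratin Krt83 (0.32, adjusted p = 0.146), the hair cuticle keratin Krt32 (0.26) and Krt78 (0.26), all with SPI above CAS on all arrays. Those farthest below 0 were Krt76, a keratin of oral mucosa (-0.30), Krt88 (-0.13) and the hair cuticle keratin Krt82 (-0.08), of which the last overlapped. Krt76 rested on SPI replicate 2 and was at -0.09 without it and at -0.51 without SPI replicate 1, and Krt32 was at 0.12 without SPI replicate 2. Krt88 and Krt82 turned to 0.03 and 0.07 when arrays were centred on the hybridization controls. Of these 30, 11 were below level class 4.

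Hair follicle markers that are not keratins were mostly on the same side as Krt73, and so opposite to the follicle keratin Krt79, which fell. Their list means were -0.177 and -0.0985 in CAS and 0.182 and 0.0973 in SPI, and in 6 of 8 both SPI arrays lay above both CAS arrays, against 29.4% of all genes. Of the 8, 1 passed and rose, Padi3, an enzyme that converts arginine to citrulline in follicle proteins (0.63, limma adjusted p = 0.0391). Only 1 of the 8 was in the highest level class.

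Keratin genes lie in clusters on mouse chromosomes 11 and 15, the former for type I and the latter for type II, with the type I gene Krt18 at the end of the type II cluster. By the gene order of GRCm38.p6, 24 of the 48 lie on each. On chromosome 15, 7 fell and 1 rose, and on chromosome 11 1 of each. Several of the genes that fell are next to each other among coding genes: Krt80 and Krt7, Krt6b and Krt6a, and Krt4 and Krt79. Direct neighbours also moved in opposite directions, as did Krt15 and Krt19 on chromosome 11 (0.73 and -0.89). Krt5, at -0.04, is next to Krt6a, at -1.46.

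**Figure D4:**
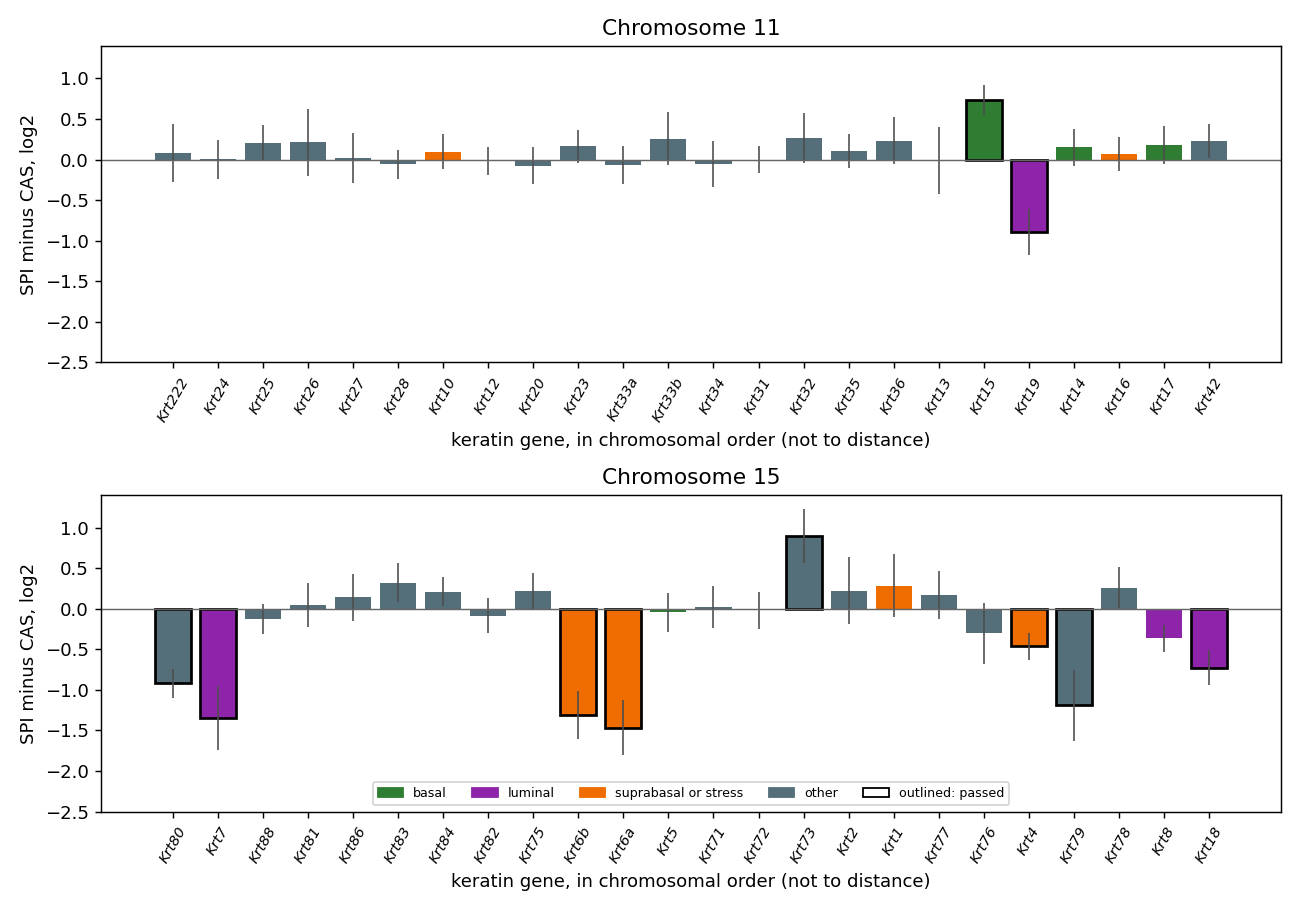
SPI minus CAS log2 difference (y) of the 24 keratins on chromosome 11 (top) and the 24 on chromosome 15 (bottom), in chromosomal order (x), bars for the estimate and thin lines for the 95% limma interval, outlined where the gene passed. Falls stand at 3 places on chromosome 15, around Krt80 and Krt7, Krt6b and Krt6a, and from Krt4 to Krt18. In the last of these Krt78 points up (0.26) and Krt8 down (-0.36), and neither passed. Krt73 rises between these places, and chromosome 11 has a pair of opposite changes at Krt15 and Krt19.

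Of 23 genes listed as keratin filament anchors and linkers, Krtcap2 and Krtcap3 included, 4 fell and 0 rose in limma. Dsc2, a desmosomal cadherin, had 0.77 and 0.55 in CAS and -0.55 and -0.80 in SPI, a log2 difference of -1.33 (adjusted p = 0.0127). Pkp2 and Jup, plaque proteins of the desmosome, were at -0.85 (adjusted p = 0.0331) and -0.47 (adjusted p = 0.0420). Eppk1, a plakin that binds keratin, was at -0.72 (adjusted p = 0.0226). Dsp, which ties keratins to the desmosome, was at 0.11, and Evpl, a plakin of the cornified envelope, at -0.80 (adjusted p = 0.0522). Of hemidesmosome genes, Plec was at -0.01, Itga6 at 0.05, Itgb4 at 0.04, Col17a1 at 0.15 and Dst at 0.31 (adjusted p = 0.0792), and none of these 5 passed. The list's median was -0.10, which turned to 0.06 when the hybridization controls set the centre.

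Of 16 transcription factors known to act on keratin genes, 1 fell, the ETS factor Ehf (-0.996, limma adjusted p = 0.0228), and 0 rose. Lef1 (0.60, adjusted p = 0.076) and Trp63, the basal master regulator (0.38, adjusted p = 0.0738), did not pass, nor did Elf5 (-0.20), Gata3 (-0.20) or Klf5 (-0.03). Of 16 other intermediate filament genes 0 passed in limma and 4 had an unadjusted p under 0.05, as 20.8% of all genes did. Vim, the filament of mesenchymal cells, was at 0.16 and Lmnb1, of the nuclear lamina, at 0.37 (adjusted p = 0.0514). Sync, a filament protein of muscle, was at -0.38 (adjusted p = 0.0544), the largest difference of the list, and Lmna at -0.18. Over these 3 lists 5 of 55 genes passed, 9.09% against 3.70% of all genes. With arrays centred on the hybridization controls 12 passed, 7 higher and 5 lower, and with genes at level class 4 or above 10 of 51 passed, 3 higher and 7 lower, beside 949 of 14229 genes in all.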

How the data were processed

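Affymetrix arrays were hybridized with biotin-labelled RNA copies made from total RNA of freshly sorted cells, per the labels' protocols. Per the submitters' processing notes GCOS and RMA were used, of unnamed version. The authors' deposited values are on the log2 scale, the base being taken from RMA. Each probe set's 4 values had a median of 0 (within 5e-07), a centring that no label records. No genome build is named.

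Of 45101 probe sets, 34945 had 1 gene in the platform annotation. Symbols were updated by gene ID (GRCm38.p6, 34741 matched), and all 48 keratin symbols were the same. Level classes were read from the step size of the digits. By chance 12.5% of probe sets with 4 precise values can be placed 1 class too high, and 616 had a value rounded in E notation, which was left out of this step. Probe sets in a gene's highest class were averaged. limma 3.58.1 (R 4.3.3; lmFit, then eBayes; two-sided; no block) was fitted to 18193 genes with 2 residual and 3.04 prior degrees of freedom, and was tested on simulated data. Intervals are 95% intervals of that fit, and the number of arrays limits the precision. The labels do not say whether replicate numbers pair the arrays, and no pairing was used in the main fit. The members, the lists and the tests were chosen with earlier results of these data known. All members of the first 3 groups, all keratins that passed and the 3 farthest of the rest in each direction are named. Named too are all genes that passed in the lists of anchors and linkers, transcription factors and other intermediate filament genes. Of the cell type marker lists, some genes that passed are not named. These are the luminal markers Esr1, Elf3 and Spint1 and all fibroblast, endothelial and pericyte markers that passed. Krt2, Krt25, Krt26, Krt27, Krt28, Krt71, Krt72 and the other genes named from the lists were chosen after their values were seen.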

Additional observations from a re-analysis of the deposited data

How the results depend on the processing

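The 2 arrays per diet limit what can be shown. With CAS or SPI replicate 1 or 2 left out, both the keratin count and the count over the 3 partner lists were 0 to 0, from 10 and 5, and that of all genes was 0, from 674. The luminal minus basal shift stayed between -1.21 and -0.97. With the replicate number as a block 8 keratins passed, Krt4 and Krt18 being lost (adjusted p = 0.0965 and 0.0502), 4 partner genes and 303 genes in all. The deviations of same-numbered arrays from their diet means correlated at -0.0811. With 2 arrays per diet both pairs give the same value by construction. Neither this value nor the labels tell whether the numbers pair the arrays. The partner count of 5 was 12 with arrays centred on the hybridization controls, 10 at level class 4 or above and 11 at an adjusted p under 0.1. Over all genes the first and last of these settings gave 2060 and 1385. The keratin count was 9 to 12 under the other settings, and Krt4 was lost without probe sets that can bind related transcripts (-0.32). In that setting genes with no other probe sets, Krt7 and Krt8 among them, kept theirs.

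Members that did not pass changed sign in places. With arrays centred on the hybridization controls, Krt5 was at 0.11, Krt13 at 0.14, Krt88 at 0.029 and Krt82 at 0.072. Leaving out 1 array gave -0.15 to 0.069 for Krt5, -0.25 to 0.22 for Krt13 and -0.0064 to 0.15 for Krt16. Single probe sets gave -0.012 and -0.011 for Krt14 and 0.0054 for Krt13. The cause was not tested.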
